A study of Mus musculus with 6 samples.

Results

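Ptpn7 and 9 further phosphatase genes that act on mitogen-activated protein (MAP) kinases were followed in RNA sequencing of mouse retinal endothelial cells at postnatal day 7. The 10 genes were chosen by name, with their differences between the groups already known. They were the rows of the count table named Ptpn7, Ptpn5, Ptprr, Dusp1, Dusp2, Dusp4, Dusp5, Dusp6, Dusp10 and Dusp16, out of 24421 genes in all. All 10 were among the 14362 genes that passed the filter on low counts. The fold changes of this same comparison were in view when they were selected, so their differences between the groups are descriptions, and nothing is read from the p-values of these genes.

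Smad4-iECKO pups carried floxed alleles of Smad4 together with Cdh5-CreERT2, a Cre recombinase that is active in endothelial cells after tamoxifen, and Smad4f/f pups carried the floxed alleles without Cre. Smad4 is the mediator shared by the BMP and TGF-beta pathways. Per the growth protocol, tamoxifen was given on day 1 and retinas were collected on day 7, on a mixed background of BL6 and CD1 mice, with 3 samples in each group. The labels do not state whether a sample was 1 pup or a pool. Controls carried no Cre, so an effect of Cre itself and the loss of Smad4 cannot be told apart.

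MAP kinases such as ERK, JNK and p38 are switched on when a threonine and a tyrosine in their activation loop are phosphorylated. Dual specificity phosphatases (the Dusp genes) remove both phosphates, whereas the tyrosine phosphatases Ptpn7, Ptpn5 and Ptprr dock through a kinase interaction motif and remove the tyrosine phosphate. Several Dusp genes are themselves switched on by the kinases they inactivate, which makes them part of negative feedback. In endothelial cells ERK acts downstream of VEGF receptors in sprouting and proliferation.

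Total counts ran from 2233360 to 17677696 per Smad4-iECKO library and from 12633018 to 23164952 per Smad4f/f library. Smad4-iECKO replicate 2 was the shallow library, in which 3 counts, the limit that a count of 0 allows, stood for 1.39 CPM (the count scaled to library size), against 0.123 to 0.239 CPM in the other libraries. Such limits cover counting error only. Smad4 itself stood at 128.1, 93.8 and 133.8 CPM in Smad4-iECKO libraries and at 109.4, 152.8 and 157.4 CPM in Smad4f/f libraries. The groups overlapped (log2 fold change -0.24, standard error 0.29), and a count over the whole gene does not show whether floxed exons alone were lost. All 15 endothelial markers were detected in every library, and their summed level was 2893 to 5595 CPM in Smad4-iECKO libraries and 1699 to 8615 CPM in Smad4f/f libraries. Rod photoreceptor markers summed to 5129 to 8965 CPM in Smad4-iECKO libraries and to 5533 to 10554 CPM in Smad4f/f libraries, so RNA of photoreceptors was present in all of them.

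Ptpn7, known as a phosphatase of blood cells that acts on ERK and p38, was at least 3.25 CPM throughout Smad4-iECKO and at most 0.299 CPM throughout Smad4f/f. The gene lies on chromosome 1 from 135132700 to 135145317 on the plus strand (mm10, GENCODE M21). Its counts were 106, 7 and 78 in Smad4-iECKO replicates 1, 2 and 3, against 0, 3 and 4 in Smad4f/f replicates 1, 2 and 3. On the CPM scale these were 5.88, 3.25 and 6.21 in Smad4-iECKO libraries, against 0, 0.123 and 0.299 in Smad4f/f libraries. The groups did not overlap, and all Smad4f/f libraries lay at 4 counts or fewer. Ptpn7 averaged 5.11 ± 1.62 CPM in Smad4-iECKO (SD, n = 3) against 0.141 ± 0.150 CPM in Smad4f/f (SD, n = 3). The fitted log2 fold change was 5.13 (standard error 0.96). Pooled over libraries, 191 counts in Smad4-iECKO and 7 counts in Smad4f/f gave a ratio of counts per total of 42.0 (95% exact interval 20.0 to 105.9, counting error only). In bulk RNA, more cells that express a gene and more RNA per cell cannot be told apart.

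The difference in Ptpn7 was present in both title prefixes, as follows from groups that do not overlap. On the scale log2(CPM + 0.5), it was 3.33 in the 4 libraries of prefix 38 (2 per group) and 2.59 in the 2 libraries of prefix 40 (1 per group), against 3.11 over all 6 libraries. Leaving out 1 library at a time gave fitted log2 fold changes of 4.65 to 5.98, the highest of them without Smad4f/f replicate 3. Scaling each library to its endothelial marker sum, under which the median of all tested genes was -0.28 in place of -0.02, gave 5.0. Set per 1000 CPM of endothelial markers, Ptpn7 stood at 2.03, 0.581 and 1.28 CPM in Smad4-iECKO libraries and at 0, 0.0726 and 0.0560 CPM in Smad4f/f libraries.

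Markers of blood cells were measured beside Ptpn7 because it is known from these cells. The 15 markers of microglia and macrophages summed to 106.0, 96.1 and 140.6 CPM in Smad4-iECKO libraries and to 67.0, 41.5 and 67.8 CPM in Smad4f/f libraries. These sums did not overlap, a pattern that 2.49% of single tested genes held in this direction. Of the 15, 14 had a positive fold change, against 48.2% of all tested genes and 4 of the 15 endothelial markers. Ptprc, which encodes the leukocyte antigen CD45, stood at 8.10, 1.86 and 17.2 CPM in Smad4-iECKO libraries and at 5.91, 1.07 and 3.66 CPM in Smad4f/f libraries, which overlapped. In Smad4-iECKO replicate 2 the microglial markers C1qa, P2ry12 and Mrc1 were at 0. The 12 measured markers of lymphocytes and neutrophils summed to 8.99, 0 and 31.1 CPM in Smad4-iECKO libraries and to 24.8, 2.67 and 4.78 CPM in Smad4f/f libraries. All 12 were at 0 in the shallow Smad4-iECKO replicate 2, where a count of 0 allows up to 1.39 CPM per gene and Ptpn7 had 7 counts. The part of RNA from any of these blood cells in the Ptpn7 difference was not tested.

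Ptpn7 has a close neighbour, and whether reads of that gene entered the Ptpn7 counts was not tested. Ptprv, named here outside the rule for named genes and after its values were seen, starts 106 bases away on the minus strand (chromosome 1, 135108497 to 135132594), so the genes run away from each other. The sequence before the Ptpn7 start is shown because these genes share it. It covers chr1:135132450-135132699 on the plus strand (mm10, RefSeq on GRCm38.p6), and capitals mark the 105 bases between the annotated starts of Ptprv and Ptpn7:
Ptpn7: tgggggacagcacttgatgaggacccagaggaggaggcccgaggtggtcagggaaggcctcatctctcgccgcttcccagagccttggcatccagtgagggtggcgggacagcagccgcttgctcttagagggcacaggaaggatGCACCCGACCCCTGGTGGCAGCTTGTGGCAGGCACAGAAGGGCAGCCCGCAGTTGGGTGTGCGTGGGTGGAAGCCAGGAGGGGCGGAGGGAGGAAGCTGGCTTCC
This window, the first of 2 that RefSeq gives for Ptpn7, held no match on either strand to any of the 9 motifs searched: CRE (TGACGTCA), its core (TGACG), the AP-1 site (TGANTCA), the CArG box, the ETS site (CCGGAAG), the SMAD box (CAGAC), the GC-rich SMAD site (GGCGCC), the p53 decamer motif and the TATA box (TATAAA). Among 32851 RefSeq windows of the same 250 bases, the SMAD box was in 42.2%, the CRE core in 17.8%, the TATA box in 12.4%, the GC-rich SMAD site in 9.59%, the p53 decamer motif in 7.13%, the ETS site in 6.91%, the AP-1 site in 6.75%, the CRE in 1.55% and the CArG box in 1.47%. Each full CRE also holds the core and is counted for both. The other Ptpn7 window, chr1:135133059-135133308, held CRE cores at -236 and -92 from its own start and none of the other 8 motifs. A missing match says only that these letters are not in a window. RefSeq also lets Ptpn7 begin further upstream, at 135131838, so the printed window lies inside its RefSeq span. The sequence before that start was not searched.

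Ptprv is a receptor-type tyrosine phosphatase gene that GENCODE lists as a processed transcript. Its counts were 46, 0 and 51 in Smad4-iECKO libraries and 10, 3 and 0 in Smad4f/f libraries, or 2.55, 0 and 4.06 CPM in Smad4-iECKO against 0.788, 0.123 and 0 CPM in Smad4f/f. The groups overlapped only through the 0 of the shallow Smad4-iECKO replicate 2, where 7.12 counts would stand at the mean of replicates 1 and 3. The pooled ratio of counts per total was 11.5 (95% exact interval 6.41 to 22.4, counting error only). In RefSeq, Ptpn7 begins further upstream, at 135131838, and Ptprv begins at 135132575, so their spans overlap by 738 bases. The library kit does not mark strand, so reads in the overlap cannot be assigned to 1 of the genes. Arl8a, the next gene downstream of Ptpn7, was at 24.4, 35.3 and 39.7 CPM in Smad4-iECKO libraries and at 25.6, 38.9 and 36.8 CPM in Smad4f/f libraries, which overlapped throughout.

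**Figure D1:**
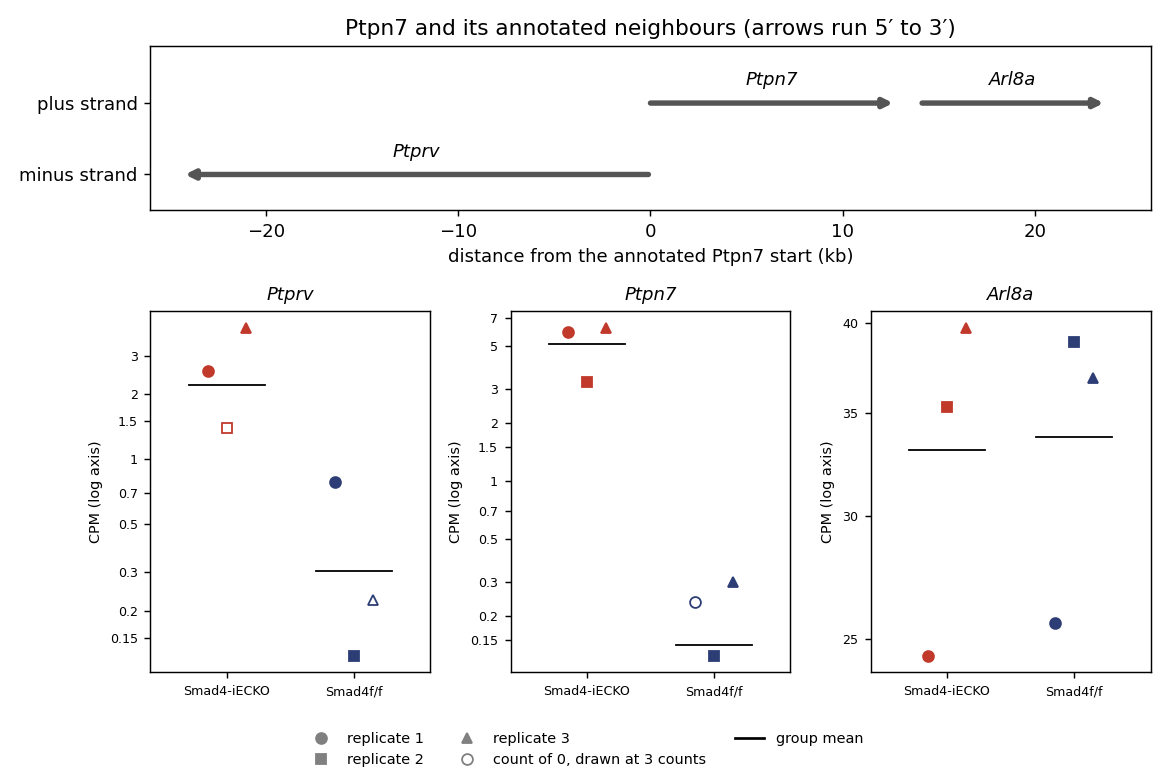
Annotated spans of Ptprv, Ptpn7 and Arl8a against the distance from the Ptpn7 start in kb (top), and their levels in CPM on a log axis in the 3 Smad4-iECKO and 3 Smad4f/f libraries (bottom, points for libraries, lines for group means, open symbols for counts of 0 drawn at 3 counts while the means use 0). Ptpn7 lies at 3.25 to 6.21 CPM in Smad4-iECKO and at 0 to 0.299 CPM in Smad4f/f, whereas the groups overlap for Arl8a.

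The other tyrosine phosphatases of this family, which are known mainly from neurons, showed no such separation. Ptpn5 (chromosome 7, 47077795 to 47133684), the striatum-enriched phosphatase, stood at 5.22, 16.2 and 2.15 CPM in Smad4-iECKO libraries and at 2.84, 6.25 and 5.31 CPM in Smad4f/f libraries. Its highest and its lowest library were both Smad4-iECKO, so the groups overlapped. The fitted log2 fold change was 0.62 (standard error 0.75), and it was -0.40 without Smad4-iECKO replicate 2. Ptprr (chromosome 10, 116018213 to 116274932) stood at 6.94, 0 and 4.94 CPM in Smad4-iECKO libraries and at 3.70, 7.98 and 4.86 CPM in Smad4f/f libraries (log2 fold change -0.37, standard error 0.86). The 0 came from Smad4-iECKO replicate 2, where 12.8 counts would stand at the mean of replicates 1 and 3, and the groups overlapped. Neuronal markers summed to 1113, 651 and 841 CPM in Smad4-iECKO libraries and to 595, 1197 and 898 CPM in Smad4f/f libraries, and 8 of the 15 had a positive fold change. Their part in the levels of Ptpn5 and Ptprr was not tested.

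Among the nuclear, inducible dual specificity phosphatases, Dusp1 differed most. Dusp1, an immediate early gene whose product inactivates p38, JNK and ERK, lies on chromosome 17 from 26505590 to 26562128 on the minus strand. It stood at 26.7, 107.2 and 50.9 CPM in Smad4-iECKO libraries and at 19.7, 29.6 and 17.3 CPM in Smad4f/f libraries. Only Smad4-iECKO replicate 1 lay within the range of the Smad4f/f libraries, and the shallow replicate 2 was the highest. Dusp1 averaged 61.6 ± 41.3 CPM in Smad4-iECKO against 22.2 ± 6.53 CPM in Smad4f/f (SD, n = 3 each). The log2 fold change was 1.45 (standard error 0.50). It was 0.77 (standard error 0.37) without Smad4-iECKO replicate 2. Scaling libraries to the endothelial marker sum gave 0.76 (standard error 0.89). On the scale log2(CPM + 0.5), Dusp1 was higher by 1.05 in prefix 38 and by 1.84 in prefix 40. Per 1000 CPM of endothelial markers, Dusp1 stood at 9.22, 19.2 and 10.5 CPM in Smad4-iECKO libraries. In Smad4f/f libraries it stood at 2.29, 17.4 and 3.23 CPM on that scale, so the groups overlapped. The prefix 40 libraries, replicate 2 of each group, lay close together there. The immediate early genes Jun, Jund, Fosb and Junb were also highest in Smad4-iECKO replicate 2, and their part in the Dusp1 difference was not tested.

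Promoter windows were available for 9 of the 10 genes, 14 in all, and Dusp4 had none, so it was not searched. The Dusp1 promoter is shown because it held the only full CRE, the site of cAMP-responsive factors, in these 14 windows. The window covers chr17:26508520-26508722 on the minus strand (mm10, RefSeq on GRCm38.p6), and capitals mark CRE cores, the second run being the full palindromic CRE, which holds a core on each strand:
Dusp1: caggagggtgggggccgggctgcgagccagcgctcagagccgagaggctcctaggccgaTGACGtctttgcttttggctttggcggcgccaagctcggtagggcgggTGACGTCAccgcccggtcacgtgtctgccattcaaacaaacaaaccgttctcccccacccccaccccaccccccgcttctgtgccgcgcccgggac
Positions are counted from the RefSeq start, which adjoins the untrimmed window at 26508473. This start lies inside the GENCODE span given above, whose own minus strand start is at 26562128. From the RefSeq start, the full CRE begins at -143, and cores begin at -191, -143 and -140. The same window held 1 SMAD box at -121 and 1 GC-rich SMAD site at -166.

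Dusp2, Dusp4 and Dusp5 are nuclear phosphatases as well, and none separated the groups. Dusp2 (chromosome 2, 127336159 to 127338376), which acts on ERK and p38 and is known from activated lymphocytes, stood at 6.05, 14.9 and 11.6 CPM in Smad4-iECKO libraries and at 27.3, 5.22 and 9.86 CPM in Smad4f/f libraries. Its highest and its lowest library were both Smad4f/f. The log2 fold change was -0.41 (standard error 0.64), and it was 0.49 without Smad4f/f replicate 1. Dusp4 (chromosome 8, 34807297 to 34819894), which acts on ERK and JNK, stood at 19.9, 34.4 and 17.8 CPM in Smad4-iECKO libraries and at 10.004, 24.7 and 21 CPM in Smad4f/f libraries (log2 fold change 0.35, standard error 0.44). The lowest library was Smad4f/f replicate 1 and the highest was Smad4-iECKO replicate 2.

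Dusp5 (chromosome 19, 53529109 to 53542431), which inactivates ERK in the nucleus, stood at 15.5, 23.2 and 12.7 CPM in Smad4-iECKO libraries and at 7.40, 20.0 and 12.1 CPM in Smad4f/f libraries. As for Dusp4, the extremes were Smad4-iECKO replicate 2 and Smad4f/f replicate 1, and the groups overlapped. The log2 fold change was 0.36 (standard error 0.46), and it was -0.29 when libraries were scaled to the endothelial marker sum, close to the median of all tested genes under that scaling (-0.28). The Dusp5 promoter is shown because it held a pair of adjoining CArG boxes, the site of serum response factor. They begin at -82 and -72 from the RefSeq start, which adjoins the untrimmed window at 53529144. It covers chr19:53528895-53529108 on the plus strand (mm10, RefSeq on GRCm38.p6), and capitals mark the CArG boxes:
Dusp5: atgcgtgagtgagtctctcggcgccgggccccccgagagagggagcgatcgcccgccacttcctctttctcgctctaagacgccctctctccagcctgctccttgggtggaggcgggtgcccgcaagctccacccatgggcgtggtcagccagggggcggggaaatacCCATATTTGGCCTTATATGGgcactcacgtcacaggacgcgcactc
SMAD boxes were found in windows of Dusp1, Dusp2 and Ptpn5 (3 of the 14 windows, none of which covers Dusp4). GC-rich SMAD sites were found in windows of Dusp1, Dusp2, Dusp5 and Ptpn5 (4 of 14). Among the 32851 RefSeq windows, the shares were 42.2% for the SMAD box and 9.59% for the GC-rich SMAD site. CArG boxes were found in the window of Dusp5 and in overlapping windows of Ptprr (3 of 14), and in 1.47% of the RefSeq windows. CRE cores were found in windows of Ptpn7, Dusp1, Dusp5 (at -55) and Dusp16 (4 of 14), and in 17.8% of the RefSeq windows. These matches are descriptions of the sequence, and binding was not measured.

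Dusp6, the cytoplasmic ERK phosphatase that is induced by ERK itself, was the most abundant of the 10 genes per kb of exon and did not separate the groups. It lies on chromosome 10 from 99263231 to 99267489. Its level was 106.2, 223.8 and 151.4 CPM in Smad4-iECKO libraries and 237.1, 61.3 and 94.1 CPM in Smad4f/f libraries. The highest and the lowest library were both Smad4f/f, so the ranges overlapped fully. Dusp6 averaged 160.5 ± 59.3 CPM in Smad4-iECKO against 130.8 ± 93.5 CPM in Smad4f/f (SD, n = 3 each), with a log2 fold change of 0.29 (standard error 0.51). It was 1.04 without Smad4f/f replicate 1 and -0.38 in the 4 libraries of prefix 38 alone. Per 1000 CPM of endothelial markers, Dusp6 stood at 36.7, 40 and 31.2 CPM in Smad4-iECKO libraries and at 27.5, 36.1 and 17.6 CPM in Smad4f/f libraries, which is a narrower spread in both groups than on the CPM scale.

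Dusp10 and Dusp16, whose products act mainly on the stress kinases JNK and p38, had group means that lay close together. Dusp10 (chromosome 1, 184013302 to 184075636) stood at 10.9, 0 and 9.32 CPM in Smad4-iECKO libraries and at 5.83, 8.35 and 7.62 CPM in Smad4f/f libraries (log2 fold change -0.03, standard error 0.86). The count of 0 was again in Smad4-iECKO replicate 2, where 21.7 counts would stand at the mean of replicates 1 and 3. In that library 264 of the 11783 genes with at least 3 CPM in every other library were also at 0, or 2.24%. Without it, both remaining Smad4-iECKO libraries lay above all Smad4f/f libraries for Dusp10, as they did for 7.51% of tested genes (5.56% had both below). Dusp16 (chromosome 6, 134715468 to 134792625) stood at 67.8, 46.0 and 73.4 CPM in Smad4-iECKO libraries and at 41.6, 73.1 and 77.0 CPM in Smad4f/f libraries. The groups overlapped, with a log2 fold change of -0.03 (standard error 0.34).

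**Figure D2:**
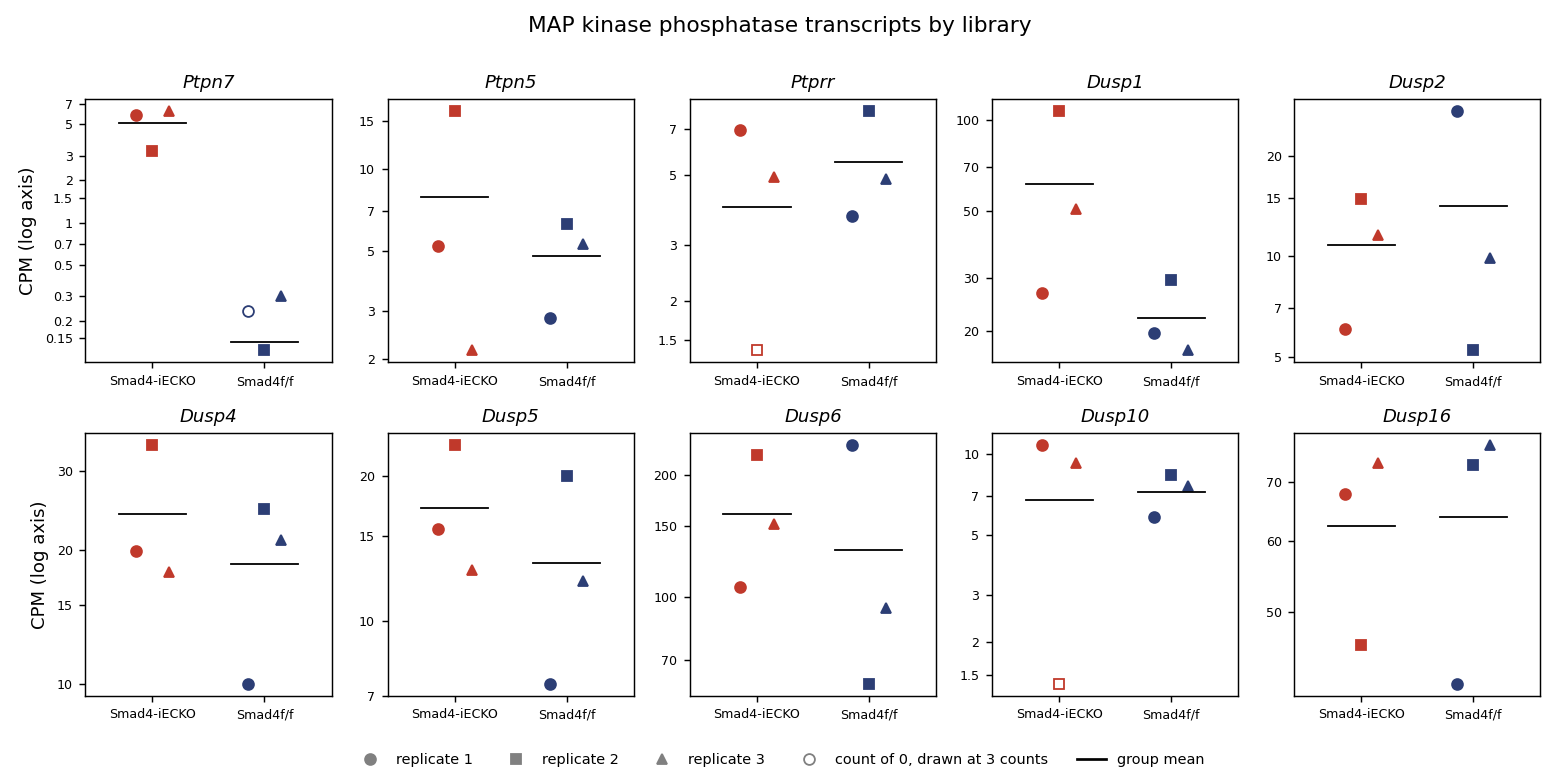
Level of each of the 10 phosphatase genes in CPM on a log axis, with Smad4-iECKO libraries in red and Smad4f/f libraries in blue (points for libraries, shapes for replicates, lines for group means, open symbols for counts of 0 drawn at 3 counts while the means use 0). Ptpn7 is the only gene of the 10 whose groups do not overlap, and Dusp10 and Ptprr each have a 0 in Smad4-iECKO replicate 2.

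Over the 10 genes, 6 fold changes were positive and 4 negative, with a median log2 fold change of 0.32, against 48.2% positive and a median of -0.02 over all tested genes. Ptpn7 was the only 1 of the 10 with every Smad4-iECKO library above every Smad4f/f library, a pattern held by 2.49% of tested genes. The opposite pattern was held by none of the 10 and by 2.83% of tested genes. With edgeR, 0 of the 10 genes and 0% of all tested genes passed an adjusted p of 0.05 in either direction. At an unadjusted p under 0.05, Ptpn7 and Dusp1 were higher and none was lower, against 0.919% and 0.39% of tested genes. DESeq2 called Ptpn7 higher, as it did 0.0458% of 19645 genes, against 0.0153% called lower, and limma-voom with sample quality weights called it higher too, as it did 0.0557% of genes. In the authors' deposited table, Ptpn7 (log2 fold change 4.29) and Dusp1 (log2 fold change 1.23) were past an adjusted p of 0.05, as were 7.7% of its 14225 genes in the higher direction and 5.69% in the lower. Since the genes were chosen with this contrast known, nothing is read from these counts. The count table held each library 3 times, in 18 columns. The unadjusted p of Dusp1 was 1.05e-06 in the authors' table. With DESeq2 it was 1.01e-06 on all 18 columns and 0.0058 on 1 column per library. In the same order, Dusp4 had 0.145, 0.145 and 0.46, and Ptpn7 had 2.12e-65, 7.77e-45 and 4.78e-09. Whether the authors' calls count each library 3 times was not tested.

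The direction of Ptpn7 and of Dusp1 did not change in any setting tried. The groups of Ptpn7 do not overlap, so leaving out libraries could not turn its sign. The settings refit the same libraries, and both genes were chosen with this contrast known. Nothing is read from the constant direction of Ptpn7 or of Dusp1. Over 16 other settings (15 for Ptpn7, which was not tested at a minimum count of 50), the sign turned in 4 for Dusp10 and for Dusp16, in 3 for Ptpn5, Ptprr, Dusp4 and Dusp6, and in 1 for Dusp2 and Dusp5. The turn of Dusp5 and 1 turn of Dusp4 (to -0.23) came under the endothelial scaling, which moved the median of all tested genes to -0.28. Ptpn5, Ptprr, Dusp2, Dusp6, Dusp10 and Dusp16 had differences of opposite sign in prefix 38 and prefix 40, as did 57.8% of tested genes. Genes annotated on the other strand overlap Ptpn5, Ptprr, Dusp1, Dusp5, Dusp10 and Dusp16, and reads in such overlaps cannot be told apart without strand.

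**Figure D3:**
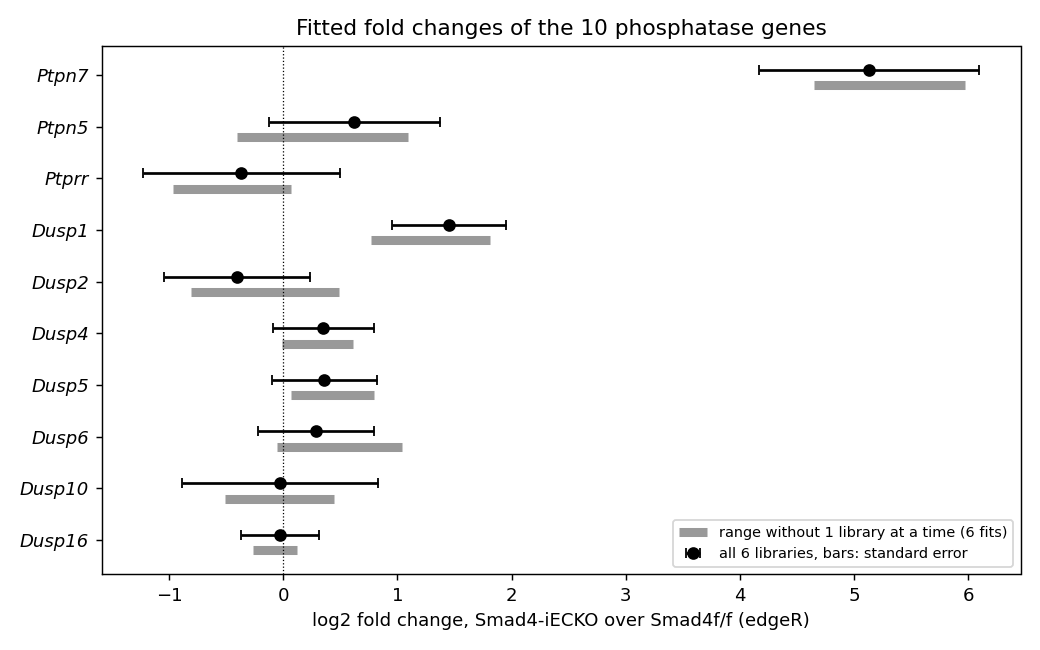
Fitted log2 fold change of Smad4-iECKO over Smad4f/f for each gene (points, with standard errors as bars) and its range when 1 library at a time is left out (grey bars, 6 fits). Ptpn7, at 5.13, and Dusp1, at 1.45, are the genes whose grey bars lie farthest from 0, while the grey bars of Ptpn5, Ptprr, Dusp2, Dusp4, Dusp6, Dusp10 and Dusp16 cross it.

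Levels were then compared between genes as CPM per kb of exon. In Smad4-iECKO libraries the mean level per kb was 51.2 for Dusp6, 18.6 for Dusp1, 8.77 for Dusp4, 8.0 for Dusp16, 6.94 for Dusp5 and 5.41 for Dusp2. It was 2.21 for Dusp10, 1.36 for Ptpn5, 0.838 for Ptpn7 and 0.668 for Ptprr. In this order Dusp6 did not overlap with its neighbour Dusp1, and every other pair of neighbours overlapped. In Smad4f/f libraries the mean level per kb was 41.8 for Dusp6, 8.19 for Dusp16, 7.05 for Dusp2, 6.78 for Dusp4, 6.70 for Dusp1 and 5.32 for Dusp5. It was 2.39 for Dusp10, 0.930 for Ptprr, 0.828 for Ptpn5 and 0.0231 for Ptpn7. Here neighbours were separated below Dusp6, below Dusp5, below Dusp10 and below Ptpn5. Dusp6 thus headed the order in both groups, and Ptpn7 was last in Smad4f/f and above Ptprr in Smad4-iECKO.

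Smad4f/f libraries alone, in which genotype does not vary, differed in vascular and glial markers. Endothelial markers summed to 8615, 1699 and 5341 CPM in replicates 1, 2 and 3, pericyte and smooth muscle markers to 2863, 624 and 1439 CPM, and markers of Mueller glia and astrocytes to 2226, 943 and 1369 CPM. Dusp2 and Dusp6 had the same order as all of these sums, highest in replicate 1 and lowest in replicate 2, an order held by 25.3% of tested genes. The marker sum of lymphocytes and neutrophils had this order too (24.8, 2.67 and 4.78 CPM). The reverse order was held by 5 of the 10 genes and by 22.1% of tested genes. It was also held by the marker sums of neurons (595, 1197 and 898 CPM) and of rod photoreceptors (5533, 10554 and 8871 CPM). The sum of microglia and macrophages had neither order. The part of these cells in the orders of the 10 genes was not tested. The log2 ratio of replicate 1 over replicate 2, on the scale log2(CPM + 0.5), was 2.28 for Dusp2 and 1.94 for Dusp6, at percentiles 96.3 and 93.8 of all tested genes, against a median of 2.52 for the endothelial markers and of 0.01 for all tested genes. It was -1.37 for Dusp5 and -1.26 for Dusp4, at percentiles 2.78 and 3.79. For Ptpn5 it was -1.02, for Ptprr -1.01, for Dusp16 -0.81, for Dusp1 -0.58, for Dusp10 -0.48 and for Ptpn7 -0.32. These are single libraries, so the ratios describe the libraries and carry no test.

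**Figure D4:**
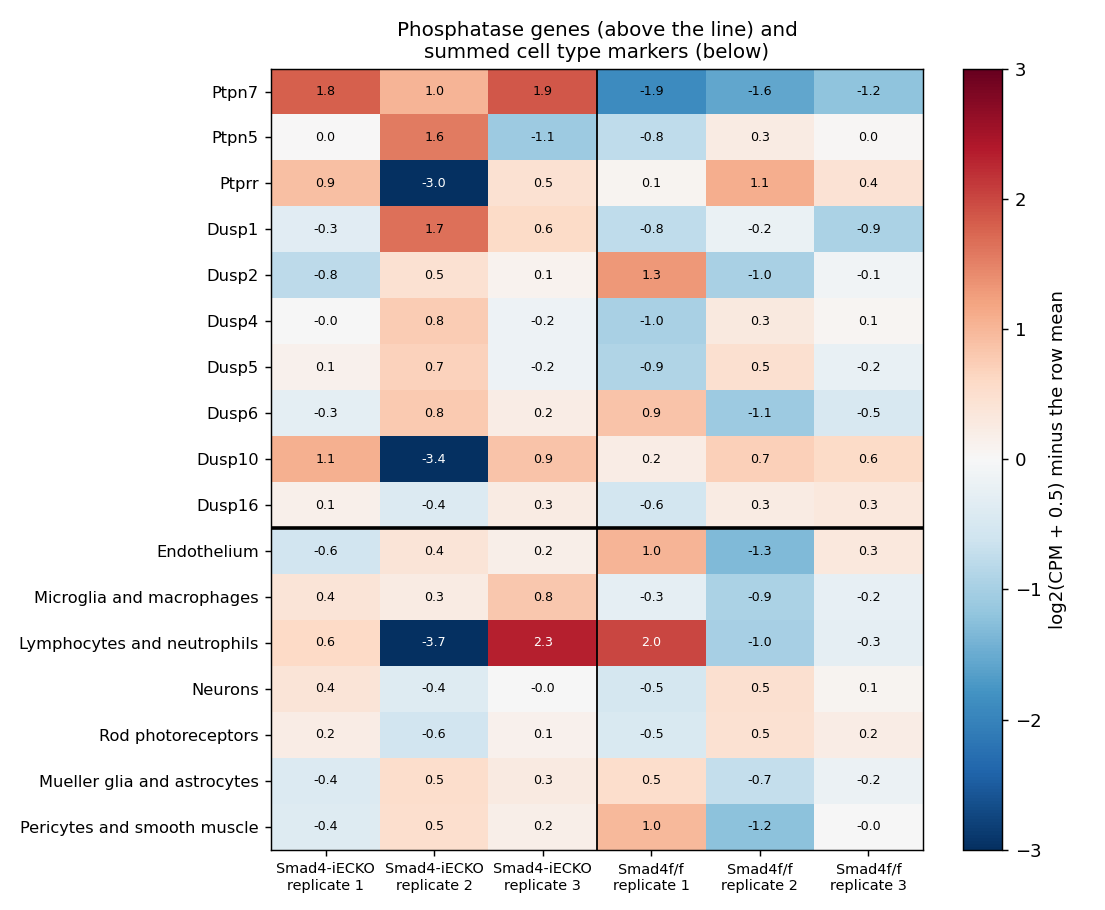
Heat map of log2(CPM + 0.5) minus the row mean for the 10 phosphatase genes (above the thick line) and for the summed markers of 7 cell types (below it), with Smad4-iECKO libraries left and Smad4f/f libraries right of the thin line. In the Smad4f/f libraries Dusp6 has the order of the endothelial, the pericyte, the Mueller glia and the lymphocyte and neutrophil marker sums. Ptpn7 is above its mean in all 3 Smad4-iECKO libraries and below it in all 3 Smad4f/f libraries.

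The genes most like Ptpn7 and Dusp6 across the 6 libraries were found by the root mean square difference of centred log2 CPM, among genes within 3 log2 units in level. Of 3806 candidates, Eda2r (0.880), Prrg4 (0.946), Hvcn1 (1.07), Slc25a43 (1.22) and Cd300lg (1.26) were nearest to Ptpn7. Eda2r, a receptor of the tumour necrosis factor receptor superfamily, had 314, 8 and 257 counts in Smad4-iECKO libraries and 13, 16 and 8 counts in Smad4f/f libraries. Its level was 17.4, 3.71 and 20.5 CPM in Smad4-iECKO libraries against 1.02, 0.658 and 0.598 CPM in Smad4f/f libraries. The groups did not overlap, which follows from choosing Eda2r for its likeness to Ptpn7. Among Smad4-iECKO libraries both genes were lowest in replicate 2. Prrg4, Hvcn1 and Slc25a43 were instead highest there among Smad4-iECKO libraries (4.64, 6.96 and 2.79 CPM), and Cd300lg was lowest in replicate 1. Hvcn1, a voltage-gated proton channel, stood at 2.89, 6.96 and 4.46 CPM in Smad4-iECKO libraries and at 0.158, 0.945 and 1.12 CPM in Smad4f/f libraries. For Dusp6 the distances were far smaller, but so was its own range over the 6 libraries (1.95 log2 units, against 5.46 for Ptpn7). The distances of these genes are thus not on equal terms. Of 8922 candidates, the nearest were Capn2 (0.0973), Apold1 (0.112), Loxl3 (0.147), Vim (0.151) and Arhgef3 (0.157). Capn2, a calpain protease subunit, stood at 75.7, 151.4 and 106.0 CPM in Smad4-iECKO libraries and at 175.6, 43.7 and 78.7 CPM in Smad4f/f libraries. Apold1, an immediate early gene of endothelial cells, stood at 48.5, 105.4 and 64.9 CPM in Smad4-iECKO libraries and at 103.7, 32.7 and 39.98 CPM in Smad4f/f libraries. Both had the library order of Dusp6 within the groups, which follows from choosing them for likeness.

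The rest of the pathway was read from 5 lists, in which edgeR, DESeq2 and limma-voom with sample quality weights called 0 genes each. The lists were chosen with earlier results of these data known, so their counts are descriptions and nothing is read from them. At an unadjusted edgeR p under 0.05 there were 3 genes, all in the list of ERK feedback and output genes. Among 12 other MAP kinase phosphatases, 10 were tested, of which 5 had positive and 5 negative fold changes (median 0.02). The authors' deposited table called 3 of the 11 it tested higher and 0 lower, against 7.7% and 5.69% over all its genes, the shares that bear on the lists that follow too. For every list, whether these calls count each library 3 times was not tested. Leaving out Smad4f/f replicate 1 gave a median of -0.18, and leaving out Smad4f/f replicate 2 gave 0.18. Dusp3, a small dual specificity phosphatase, averaged 114.5 ± 21.4 CPM in Smad4-iECKO against 67.0 ± 31.7 CPM in Smad4f/f. Ptpre, a receptor-type tyrosine phosphatase, averaged 27.2 ± 7.503 CPM in Smad4-iECKO against 16.1 ± 7.13 CPM in Smad4f/f. Ptpn2 averaged 39.6 ± 20.8 CPM in Smad4-iECKO against 49.7 ± 5.24 CPM in Smad4f/f, and Dusp22 averaged 34.2 ± 8.58 CPM in Smad4-iECKO against 30.3 ± 3.06 CPM in Smad4f/f (SD, n = 3 each for these and the means that follow). The groups overlapped for all 4 of these genes.

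Genes of the kinase cascades lay around the median of all genes. Of 27 ERK cascade genes, 12 had positive and 15 negative fold changes (median -0.03), and the authors' deposited table called 2 higher and 1 lower. Ksr2 and Ksr1, scaffolds of the cascade, had log2 fold changes of 0.75 (standard error 0.50) and 0.50 (standard error 0.35), and Map2k1, the kinase that activates ERK, had 0.44 (standard error 0.32). Egfr, a growth factor receptor, averaged 10.3 ± 2.66 CPM in Smad4-iECKO against 14.5 ± 2.34 CPM in Smad4f/f. Of 23 tested genes of the JNK and p38 cascades, 15 had positive and 8 negative fold changes (median 0.10), and the authors' deposited table called 0 in either direction. Map2k3, Mapk11, Mapkapk3 and Mapk8ip3 had the smallest unadjusted p there, with log2 fold changes of 0.47, 0.69, 0.93 and 0.29 and standard errors of 0.37, 0.56, 0.85 and 0.31. In each of these cascade genes the groups overlapped.

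Of 17 tested ERK feedback and output genes, 13 had positive and 4 negative fold changes (median 0.23), and the authors' deposited table called 6 of 17 higher (7.7% over all its genes) and 0 lower. The median was 0.51 without Smad4-iECKO replicate 2 and 0.12, with 10 positive and 7 negative, without Smad4-iECKO replicate 3. In 3 of the 17, every Smad4-iECKO library lay above every Smad4f/f library, a pattern of 2.49% of all tested genes. Since the list was chosen with earlier results known, nothing is read from these counts. Etv4, an ETS factor induced by ERK, stood at 7.99, 7.89 and 14.0 CPM in Smad4-iECKO libraries and at 5.51, 4.15 and 2.02 CPM in Smad4f/f libraries (log2 fold change 1.37, standard error 0.54). Epha2, an ephrin receptor, stood at 70.7, 117.5 and 88.2 CPM in Smad4-iECKO libraries and at 63.1, 26.9 and 54.4 CPM in Smad4f/f libraries (log2 fold change 0.93, standard error 0.38). Ccnd1, the cyclin of G1 progression, stood at 205.2, 298.1 and 282.0 CPM in Smad4-iECKO libraries and at 178.7, 117.4 and 174.3 CPM in Smad4f/f libraries (log2 fold change 0.74, standard error 0.31). These were the genes with an unadjusted p under 0.05, and none passed the adjusted threshold. Phlda1 stood at 9.93, 35.3 and 10.1 CPM in Smad4-iECKO libraries and at 3.78, 4.97 and 11.3 CPM in Smad4f/f libraries, which overlapped.

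Of 17 tested immediate early genes, the class to which Dusp1 belongs, 11 had positive and 6 negative fold changes (median 0.19), and the authors' deposited table called 1 of 16 higher and 0 lower. Jun, a subunit of AP-1, stood at 138.2, 242.4 and 136.1 CPM in Smad4-iECKO libraries and at 105.1, 120.0 and 124.1 CPM in Smad4f/f libraries, without overlap (log2 fold change 0.56, standard error 0.32). It was the only 1 of the 17 with every Smad4-iECKO library above every Smad4f/f library, a pattern of 2.49% of all tested genes. Jund, Fosb and Junb, also AP-1 subunits, overlapped between the groups, and each was highest in Smad4-iECKO replicate 2, at 454.5, 76.6 and 159.7 CPM. Dusp1 was highest in the same library. The median of the list was -0.09 without Smad4-iECKO replicate 2, -0.05 without Smad4f/f replicate 3 and -0.19 in the 4 libraries of prefix 38 alone, and it reached 0.51 when Smad4f/f replicate 1 was left out. With the endothelial scaling, under which the median of all tested genes was -0.28, 2 of 10 other phosphatases, 6 of 27 ERK cascade genes, 6 of 23 JNK and p38 genes, 9 of 17 ERK feedback and output genes and 8 of 17 immediate early genes had positive fold changes, with medians of -0.41, -0.35, -0.15, 0.10 and -0.04.

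**Figure D5:**
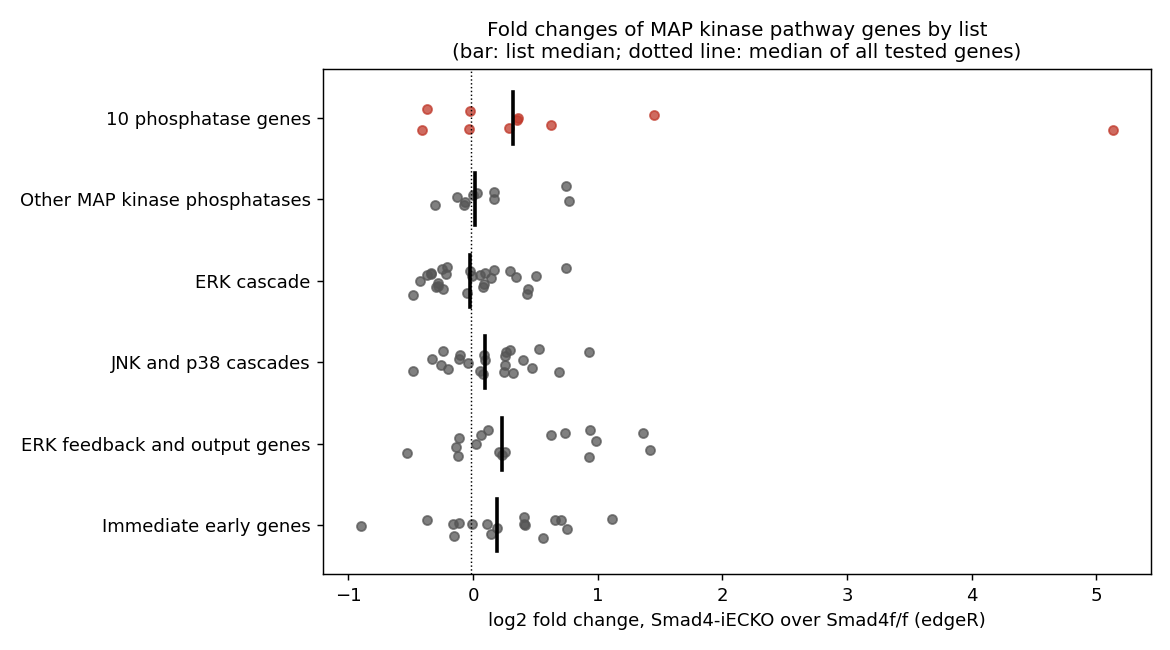
Fitted log2 fold changes of Smad4-iECKO over Smad4f/f for the 10 phosphatase genes and 5 pathway lists (points for genes, spread vertically at random within a row, bars for list medians, dotted line for the median of all tested genes at -0.02). Ptpn7, at 5.13, lies apart from every other gene drawn, and the list medians lie between -0.03 and 0.32.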

How the data were processed

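RNA of endothelial cells isolated from retinas was column-purified and sequenced from Illumina TruSeq RNA v2 libraries, as the labels' protocols state. The submitters' processing notes name STAR, DESeq2 and mm10. How reads were counted, and on which annotation, is not given in the sources used here. The authors' deposited count table held raw, whole-number read counts of 24421 genes in 18 columns, 3 per sample. The 3 columns of each sample held identical values in every gene, so each sample was used once. The authors' deposited table of results held, per the file headers, a score for the test with its p-values, adjusted and not, beside log2 fold changes, their errors and a mean normalized signal.

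The genotype label gave the groups. Replicate numbers follow accession order and pair nothing. Titles begin with Lit38 or Lit40, called prefix 38 and prefix 40, which the labels do not explain. Nothing says that samples came from separate animals, so p-values cover only spread between the samples at hand, which may be technical.

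The main test was edgeR 4.0.16 (quasi-likelihood F-test, TMM, filterByExpr with minimum count 10 and minimum total 15, R 4.3.3), fitted on all 14362 genes left, with Benjamini-Hochberg adjustment at 0.05. CPM used TMM-scaled totals. Standard errors were the size of the log2 fold change divided by the square root of F. Alternatives were limma-voom (limma 3.58.1), DESeq2 1.42.0 and other scalings, filters, subsets and left-out libraries. The tests were tested on simulated data. The pseudocount was 0.5 CPM for log2(CPM + 0.5), and likeness used log2 CPM with a prior count of 2.

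The members, the pathway lists and the markers were chosen with earlier results of these data known. Named genes were the members, Smad4, up to 4 genes of each pathway list with the smallest unadjusted p, and the 5 genes most like Ptpn7 and Dusp6. Exon lengths and positions came from GENCODE M21 (mm10). RefSeq promoter windows (GRCm38.p6) matched 9 of the 10 members, all but Dusp4, with 14 windows. Motifs were searched in the 250 bases upstream on both strands. The printed Dusp1 and Dusp5 windows were trimmed to bases free of protein-coding exons. Figures were drawn with matplotlib 3.10.9.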

Additional observations from a re-analysis of the deposited data

How the results depend on the processing

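The count of genes called between Smad4-iECKO and Smad4f/f was 0 with edgeR, whose smallest adjusted p was 0.864, with 188 genes at an unadjusted p under 0.05. It was 12 with DESeq2 (9 higher, 3 lower), 8 with limma-voom and sample quality weights (8 higher, 0 lower), and 2235 when DESeq2 was run on all 18 columns as if each were a sample. The authors' deposited table called 1905 genes, and 1778 calls were shared with that last fit. That fit counts each library 3 times, and whether the authors' fit did the same was not tested. Other scalings, filters, the title prefix as a block and the 4 libraries of prefix 38 alone gave 0 calls in edgeR, and leaving out 1 library at a time gave 0 to 0. No paired analysis was possible because replicate numbers are in accession order and pair no samples, so the title prefix served as the only block. Ptpn7 was not tested at a minimum count of 50, and it kept its sign in the other 15 settings, at 4.65 to 5.98. Leaving out libraries could not turn that sign, because the groups of Ptpn7 do not overlap. Dusp1 kept its sign in 16, at 0.76 to 1.82, and nothing is read from this, since the settings refit the same libraries. After the data were seen, leaving out Smad4-iECKO replicate 2 was added to the count of the 10 genes with every Smad4-iECKO library above every Smad4f/f library, which was 2 without it (Ptpn7 and Dusp10) and 1 with it. The causes were not tested. Depth limits Ptpn7 and Ptprv in Smad4f/f libraries and every gene under 1.39 CPM in Smad4-iECKO replicate 2.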
